A study of Mus musculus with 10 samples.

Results

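The oligoadenylate synthetase (OAS) genes were followed in the lactating mammary gland of the inbred mouse strain BALB/c after endotoxin or saline was put into the gland. Members were the rows of the table of all genes whose Ensembl identifier maps to Oas1a, Oas1b, Oas1c, Oas1g, Oas2, Oas3, Oasl1 or Oasl2, which gave 8 of 35275 genes. On lactation day 3 the glands of the 4th pair received, through the teat, 50 µL of lipopolysaccharide (LPS) of E. coli at 0.4 mg/mL on 1 side and 50 µL of phosphate-buffered saline (PBS) on the other. Glands were taken 12 h later, and libraries of 5 LPS-treated and 5 PBS-treated glands are described here. All animals were of the same strain and stage, none carried an engineered allele, and by the protocol every PBS gland had an LPS-treated gland on the other side of the same animal. The labels give n = 9 and do not say which libraries came from the same mouse, so the p-values measure the spread between these libraries.

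OAS enzymes are switched on by double-stranded RNA and join ATP into short chains of adenylate with an unusual linkage, and these chains set off the cutting of single-stranded RNA in the cell. The genes are classical targets of type I interferon, which acts through STAT2 and IRF9 on a promoter element called the interferon-stimulated response element (ISRE). In mice the Oas1 gene has been copied many times, and some copies make proteins that bind RNA without making the adenylate chains. Oas2 and Oas3 encode proteins with repeated synthetase units, and the OAS-like genes Oasl1 and Oasl2 carry ubiquitin-like repeats at their ends. Endotoxin is sensed by TLR4, which can induce type I interferon through the adaptor TRIF.

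Depth was 15734303 to 18869545 counted reads per library. Values are FPKM, fragments scaled to gene length and to the counted reads of the library, and the reads behind them were recovered as whole numbers for all 23059 genes above 0. Luminal epithelium markers took 17.3 to 21.2% of summed FPKM in PBS and 11.4 to 15.7% in LPS glands. Most of this was the milk protein genes Wap (means of 70887 and 52845 FPKM) and Csn2 (56692 and 37162 FPKM). Of the 6 genes of that list, the limma test described below called 1 higher (Krt8) and 0 lower, against 2.63% and 0.605% of all tested genes. PBS replicate 1 and LPS replicate 1 stood apart in the OAS genes: PBS replicate 1 was the lowest PBS library in 8 of 8 members and LPS replicate 1 the lowest LPS library in 7. B cell markers summed to 36.5 and 15.7 FPKM in PBS replicates 2 and 4 and to 13.6 in LPS replicate 3, against 0.168 to 4.81 in the other libraries.

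Most of the OAS family was higher in LPS glands. Of the 8 members, all tested, 5 rose and 0 fell (Oas3, Oasl1, Oasl2, Oas1a and Oas1g), where 2.63% of all 11414 tested genes rose. Their 8 FPKM values summed to 72.2 ± 17.4 in PBS and 167.0 ± 47.0 in LPS glands (mean ± SD, n = 5 per group), with every LPS library (100.8 to 216.6) above every PBS library (43.3 to 90.7). The median log2 change of the members, LPS minus PBS on log2(FPKM + 1), was 1.07, against 0.05 over all tested genes. Genes were tested with limma at a Benjamini-Hochberg adjusted p below 0.05 over all tested genes; edgeR on the recovered reads also called 5 members higher (2.67% of all genes) and DESeq2 6 (4.78%). The authors' deposited table lists 6 members, all as higher, and not Oas1b or Oas1c. Of all 35275 genes it lists 608 as higher and 300 as lower. Falls, of which the members had 0 by each tool, made up 0.605% of all tested genes by limma, 1.16% by edgeR and 2.62% by DESeq2. In bulk tissue, fewer cells of a type and less RNA per cell cannot be told apart. Between groups, neutrophil markers moved with the OAS genes: 5 of 8 tested neutrophil markers rose, and Mmp9, Ngp and Camp were not called. The 10 genes of that list summed to 709.6 to 1873 FPKM in PBS and 7375 to 14200 FPKM in LPS glands. Most of the LPS sum was S100a8 and S100a9 (means of 7386 and 3866 FPKM). None of the 10 was at 0 in all libraries, and their part in the OAS result was not tested. The calls were made on all 10 libraries: without PBS replicates 2 and 4 and LPS replicate 3, 0 members were called by limma at adjusted p-values of 0.0609 to 0.145 for the 5, whose log2 changes were 1.03 to 1.91, and without LPS replicates 2 and 5, the libraries highest in the neutrophil receptor genes Csf3r and Cxcr2 but not in the summed list, only Oasl1 was called; the other 4 had log2 changes of 0.99 to 1.74 (limma adjusted p of 0.0553 to 0.141).

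**Figure D1:**
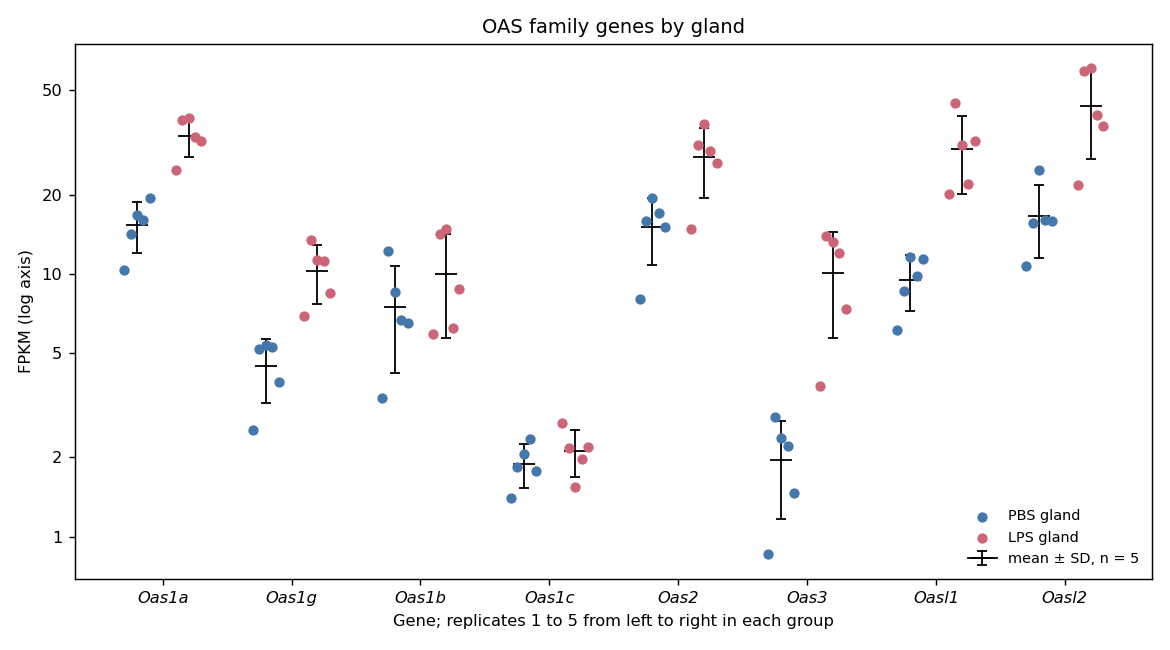
FPKM (log axis) of the 8 OAS genes in each PBS (blue) and LPS (red) gland, with the mean ± SD of 5 libraries as black bars. LPS points lie above all PBS points for Oas1a, Oas1g, Oas3 and Oasl1 and overlap with them for Oas1b, Oas1c, Oas2 and Oasl2.

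Oas1a and Oas1g, the Oas1 copies that make active enzyme, rose together. Oas1a (ENSMUSG00000052776, chromosome 5, 120896256 to 120907521, minus strand, build mm10) was at 10.3, 14.2, 16.7, 16.0 and 19.4 FPKM in PBS replicates 1 to 5. In LPS replicates 1 to 5 it was at 24.8, 38.4, 39.1, 33.1 and 32.05 FPKM. No LPS gland reached down to the PBS glands, and the mean went from 15.3 ± 3.36 to 33.5 ± 5.77 FPKM (2.19-fold, log2 change 1.09 ± 0.16 SE, limma adjusted p = 0.00529). Oas1g (ENSMUSG00000066861, chromosome 5, 120876142 to 120887613, minus strand) lay at 2.55, 5.16, 5.35, 5.24 and 3.89 FPKM in the PBS glands and at 6.89, 13.5, 11.3, 11.2 and 8.41 FPKM in the LPS glands. The groups did not overlap here either, and the mean went from 4.44 ± 1.21 to 10.3 ± 2.60 FPKM (2.31-fold, log2 change 1.05 ± 0.19, limma adjusted p = 0.0153; 0.0572 with no filter on low values). Non-overlapping groups with LPS higher were found for 4 of 8 members, the others being Oas3 and Oasl1, and for 3.53% of all tested genes; 0 of 8 members, and 1.22% of all tested genes, had every LPS library below every PBS library. The transcripts of this pair are much alike: 57.6% of all 50-base stretches of the annotated Oas1a transcripts also occur in Oas1g, and 45.2% of those of Oas1g in Oas1a, so the split of reads between them is uncertain. Added together they had 443 to 711 reads in PBS and 1139 to 1796 reads in LPS libraries, and their summed FPKM went from 19.8 ± 4.10 to 43.7 ± 8.16 (2.21-fold).

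The start regions of Oas1a and Oas1g are shown because these copies rose together, and that of Oas1c because it fills the gap to Oas1b; neither Oas1b nor Oas1c was called. The RefSeq promoter table (build GRCm38.p6, of the strain C57BL/6J) held 6 of the 8 members. The 120 bases before each start are printed 5′ to 3′ on the gene's strand, at chr5:120907526-120907645 (Oas1a), chr5:120887614-120887733 (Oas1g) and chr5:120812515-120812634 (Oas1c), all on the minus strand, with letters that match the ISRE core searched (GAAA, any 2 bases, GAAA) on either strand in capitals.
Oas1a: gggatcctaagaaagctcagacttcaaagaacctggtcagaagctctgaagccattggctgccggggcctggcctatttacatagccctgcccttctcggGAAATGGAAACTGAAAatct
Oas1g: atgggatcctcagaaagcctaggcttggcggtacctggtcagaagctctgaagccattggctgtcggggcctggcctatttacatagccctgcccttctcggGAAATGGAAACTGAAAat
Oas1c: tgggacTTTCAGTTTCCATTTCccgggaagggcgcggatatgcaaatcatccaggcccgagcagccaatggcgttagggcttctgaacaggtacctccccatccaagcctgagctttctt
In Oas1a overlapping matches lie at -20 to -11 and -14 to -5 from the start, and in Oas1g at -18 to -9 and -12 to -3. Shifted by 2 bases, the windows of Oas1a and Oas1g were identical at 108 of 118 positions (91.5%). The Oas1c matches, on the other strand, lie at -114 to -105 and -108 to -99, which is just before the annotated start of Oas1b. Of all 32851 promoters of the table (250 bases before to 50 after the start), 3.44% hold these letters on either strand, against 4 of the 6 members with a promoter in the table. The letters TTCNNNGAA, the core of the interferon gamma-activated site, were found in Oas1a alone among the 6 (-98 to -90) and in 8.3% of all promoters. A match describes letters in the reference and not binding in these glands.

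Oas1b and Oas1c, copies whose products are not known to make the adenylate chains, had the smallest changes of the family. Oas1b is the flavivirus resistance gene of mice and is annotated as a polymorphic pseudogene, a class for genes that are disrupted in the reference strain and intact in others (ENSMUSG00000029605, chromosome 5, 120812635 to 120824163, plus strand). It was at 3.37, 12.2, 8.498, 6.64 and 6.50 FPKM in PBS replicates 1 to 5 and at 5.89, 14.1, 14.7, 6.24 and 8.73 FPKM in LPS replicates 1 to 5. The groups overlapped widely, with PBS replicate 2 above 3 of the LPS glands, and the means were 7.44 ± 3.23 and 9.94 ± 4.24 FPKM (log2 change 0.38 ± 0.30, limma adjusted p = 0.601). Oas1c (ENSMUSG00000001166, chromosome 5, 120800194 to 120812514, minus strand) starts 120 bases from Oas1b and runs the other way. It had 1.40, 1.84, 2.06, 2.36 and 1.77 FPKM in the PBS glands and 2.71, 2.17, 1.54, 1.97 and 2.19 FPKM in the LPS glands, from 58 to 117 reads per library. No separation of the groups was seen (log2 change 0.11 ± 0.13, limma adjusted p = 0.759), and its sign turned, to -0.03, when FPKM were rescaled to the sum outside milk proteins. LPS replicate 1, low in the other members, was the highest library for Oas1c.

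The other 4 annotated Oas1 copies were almost silent. Oas1d and Oas1e had 1 read each over all 10 libraries and Oas1f had 2. Oas1h had 48 reads in all, 2 to 10 per library, and reached 0.338 FPKM in LPS replicate 3. None of them passed the filter of at least 1 FPKM in 5 libraries. The 10 genes of the Oas cluster span 191.3 kb, from 120730333 to 120921652, with the silent copies interspersed: Oas1e between Oas3 and Oas1c, Oas1f and Oas1h between Oas1b and Oas1g, and Oas1d beyond Oas1a.

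**Figure D2:**
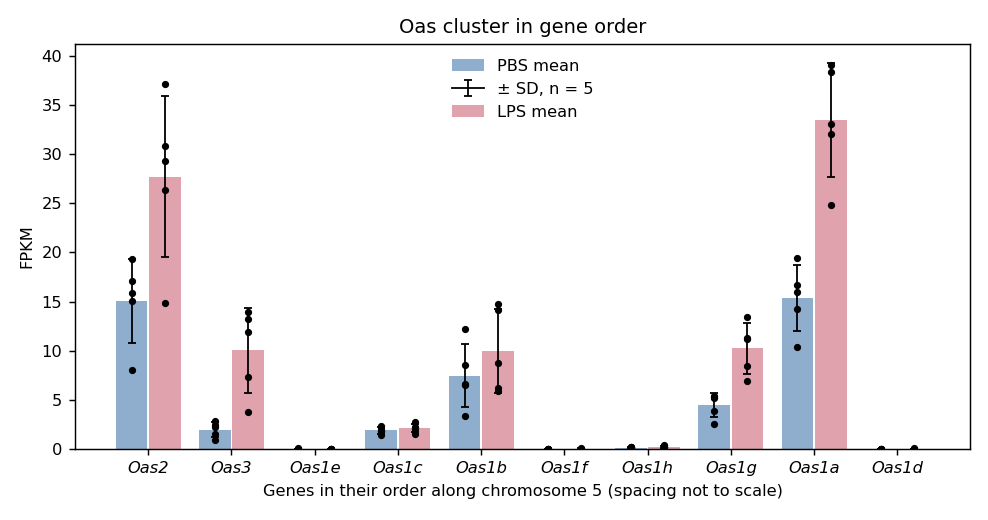
FPKM of the 10 genes of the Oas cluster in their order along chromosome 5 (bars, mean of 5 libraries; lines, ± SD; points, libraries). Oas1d, Oas1e, Oas1f and Oas1h lie at or near 0 in both groups, and the tallest bars belong to Oas1a and Oas2.

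Oas3, whose long protein binds long double-stranded RNA, had the largest change of the family. It (ENSMUSG00000032661, chromosome 5, 120753098 to 120777661, minus strand) was at 0.855, 2.85, 2.38, 2.21 and 1.47 FPKM in PBS replicates 1 to 5, from 73 to 227 reads. In LPS replicates 1 to 5 it was at 3.75, 13.9, 13.2, 11.9 and 7.32 FPKM, from 334 to 1190 reads. All LPS glands were above all PBS glands, but LPS replicate 1 was only a little above the highest PBS gland. The mean went from 1.95 ± 0.79 to 10.02 ± 4.34 FPKM (5.13-fold), with a log2 change of 1.83 ± 0.30 (limma adjusted p = 0.00825) and of 2.30 by edgeR, which works on reads and not on log2(FPKM + 1).

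Oas2, next to Oas3 with 3244 bases between them, makes long adenylate chains (ENSMUSG00000032690, chromosome 5, 120730333 to 120749853, minus strand). It was at 8.03, 15.9, 19.3, 17.1 and 15.0 FPKM in the PBS glands and at 14.8, 30.8, 37.1, 29.4 and 26.3 FPKM in the LPS glands. Of the LPS glands, 4 were above all PBS glands, and LPS replicate 1 was below 4 of the PBS glands. The means were 15.1 ± 4.26 and 27.7 ± 8.21 FPKM (1.84-fold, log2 change 0.83 ± 0.25), and Oas2 did not pass the test (limma adjusted p = 0.0913; 0.0591 by edgeR). Without LPS replicate 1 it passed (log2 change 1.03, limma adjusted p = 0.0200), as it did by DESeq2 (adjusted p = 0.00671). Oas2 also passed with library weights (limma adjusted p = 0.0407) and with a block for replicate number, which the labels do not tie to an animal. The authors' deposited table lists it as higher, with a log2 fold change of 0.67 and an adjusted p of 0.00578. DESeq2 on the recovered reads gave a log2 change of 0.81 for Oas2. The settings behind the authors' value are not given, so its size cannot be set directly beside the changes found here.

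The OAS-like genes both rose. Oasl1, which lacks synthetase activity and is known to hold back translation of Irf7 (ENSMUSG00000041827, chromosome 5, 114923240 to 114937915, plus strand), was at 6.09, 8.61, 11.6, 9.79 and 11.4 FPKM in PBS replicates 1 to 5. In LPS replicates 1 to 5 it was at 20.2, 44.7, 30.8, 21.9 and 31.97 FPKM. The lowest LPS gland was far above the highest PBS gland, and the mean went from 9.49 ± 2.26 to 29.9 ± 9.80 FPKM (3.15-fold, log2 change 1.53 ± 0.21, limma adjusted p = 0.00373). At its end Oasl1 overlaps an antisense gene, Gm13822, by 38 bases. Oasl2, an OAS-like enzyme that keeps synthetase activity (ENSMUSG00000029561, chromosome 5, 114896936 to 114912234, plus strand), had 10.7, 15.6, 24.8, 16.0 and 15.8 FPKM in the PBS glands. The LPS glands had 21.8, 59.0, 60.4, 40.2 and 36.3 FPKM. LPS replicate 1 was below PBS replicate 3, so the groups overlapped by that library. The mean went from 16.6 ± 5.12 to 43.5 ± 16.3 FPKM (2.63-fold, log2 change 1.30 ± 0.26, limma adjusted p = 0.0197). This call was lost without PBS replicate 1 (adjusted p = 0.0558), PBS replicate 4 (0.0535) or LPS replicate 2 (0.0604), with limma log2 changes of 1.16 to 1.30.

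Upstream letters of Oas3, Oasl1 and Oasl2, the members of largest change, are shown for comparison with the Oas1 copies. Each run is the 120 bases before the RefSeq start, 5′ to 3′ on the gene's strand with ISRE core matches in capitals, at chr5:120777660-120777779 (Oas3, minus strand), chr5:114923120-114923239 (Oasl1, plus strand) and chr5:114896814-114896933 (Oasl2, plus strand).
Oas3: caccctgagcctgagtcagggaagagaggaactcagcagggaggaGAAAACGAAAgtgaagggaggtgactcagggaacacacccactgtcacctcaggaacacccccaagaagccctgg
Oasl1: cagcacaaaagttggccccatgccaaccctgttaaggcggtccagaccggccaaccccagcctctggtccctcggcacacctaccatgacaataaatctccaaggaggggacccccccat
Oasl2: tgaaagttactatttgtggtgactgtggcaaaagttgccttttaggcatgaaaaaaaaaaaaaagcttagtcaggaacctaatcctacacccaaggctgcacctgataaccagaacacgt
Oas3 holds 1 match, at -75 to -66. Oasl1 and Oasl2 hold none in the 300 bases of the table, which says only that these letters are absent from this window.

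Members differed in how much they changed. For each of the 28 pairs of members, the difference of their log2(FPKM + 1) values was taken within each library and the group means of that difference were compared (exact permutation test, two-sided, 252 arrangements of the group labels, smallest possible p 0.00794). In 14 pairs the adjusted exact p was below 0.05. Oas3 rose more than its neighbour Oas2, by 1.00 on the log2 scale (adjusted exact p = 0.0370): Oas2 exceeded Oas3 by 2.44 ± 0.23 in PBS and by 1.44 ± 0.28 in LPS glands. Oasl1 and Oasl2 also rose more than Oas2, by 0.70 and 0.47 (adjusted exact permutation p = 0.0476 and 0.0370). Oas3 rose more than Oas1g by 0.78, and Oasl1 more than Oas1a by 0.44 (adjusted exact p = 0.0370 for both). Oas1c differed from Oas1a, Oas1g, Oas3, Oasl1 and Oasl2 by 0.94 to 1.72, and Oas1b from Oas1g, Oas3, Oasl1 and Oasl2 by 0.67 to 1.45. The changes of Oas1a and Oas1g differed by 0.04 (exact permutation p = 0.770), those of Oasl1 and Oasl2 by 0.23 (exact p = 0.278), and those of Oas1b and Oas1c by 0.27 (exact p = 0.492). The number of pairs was 5 when any of PBS replicates 1, 3, 4 and 5 was left out, and 0 when either set of libraries named above was left out, which leaves 35 or 56 arrangements.

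**Figure D3:**
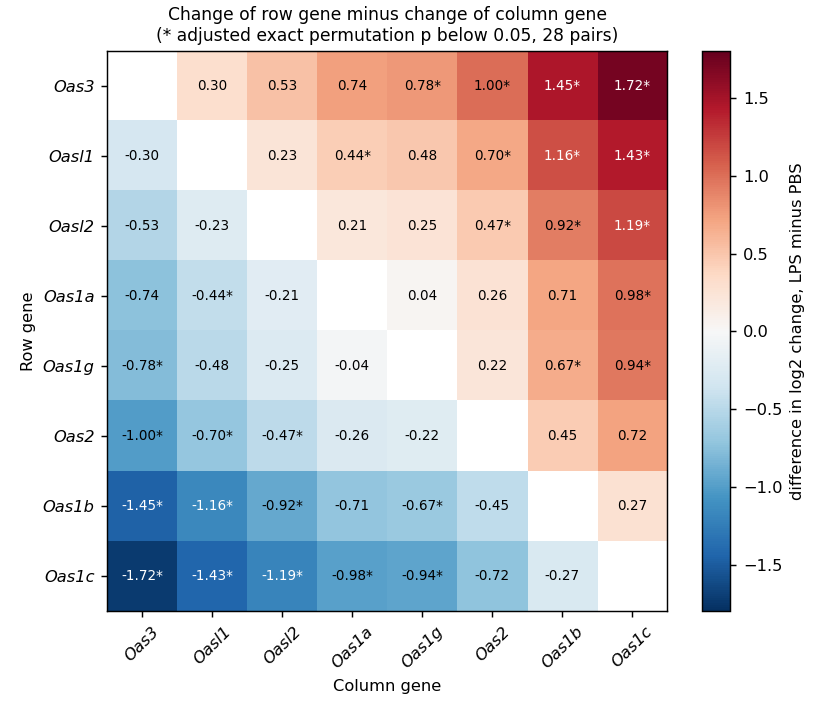
Difference between the log2 change (LPS minus PBS, on log2(FPKM + 1)) of the row gene and that of the column gene, for all 28 pairs shown in both directions. Asterisks mark the 14 pairs with an adjusted exact permutation p below 0.05; the largest difference is 1.72, between Oas3 and Oas1c.

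In the members that rose, and in Oas2, replicate 1 was the lowest library of both groups, but the order of the other libraries differed. The highest PBS library was replicate 5 for Oas1a (19.4 FPKM) and replicate 2 for Oas3 (2.85 FPKM). Each member's log2(FPKM + 1) was set relative to its own mean over the 10 libraries, and the mean of the 8 was -1.09 in PBS replicate 1 and -0.48 to -0.22 in the other PBS libraries. In LPS glands it was -0.05 in replicate 1, 0.43 in replicate 5, 0.47 in replicate 4, 0.80 in replicate 3 and 0.89 in replicate 2. The library of number 1 was thus lowest in both groups. Over all 10 libraries, the change between groups included, Oas1g lay nearest to the mean pattern. Its mean absolute difference was 0.09 per library, and Oas1a (0.14) and Oas2 (0.15) came next to that pattern. Oas1c (0.53) and Oas3 (0.43) lay farthest from it, Oas1c because it hardly moved and Oas3 because it moved more. Oas1b was high in PBS replicate 2 (0.55) and low in LPS replicate 4 (-0.32), where the 5 members that rose were at -0.86 to -0.31 and at 0.39 to 1.26. B cell markers were highest in PBS replicate 2 (36.5 FPKM) and at 0.202 FPKM in LPS replicate 4. Oas1b was highest in LPS replicates 3 (0.80) and 2 (0.74), where B cell markers were at 13.6 and 4.81 FPKM. It was lowest in PBS replicate 1 (-1.05), where they were at 0.367 FPKM. PBS replicate 4, the next richest after PBS replicate 2 (15.7 FPKM), had Oas1b at -0.24, and PBS replicate 3, the poorest (0.168 FPKM), at 0.07. The mean of the 8 members was also high in LPS replicates 2 and 3 and lowest in PBS replicate 1. The part of B cell markers in the Oas1b values was not tested.

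**Figure D4:**
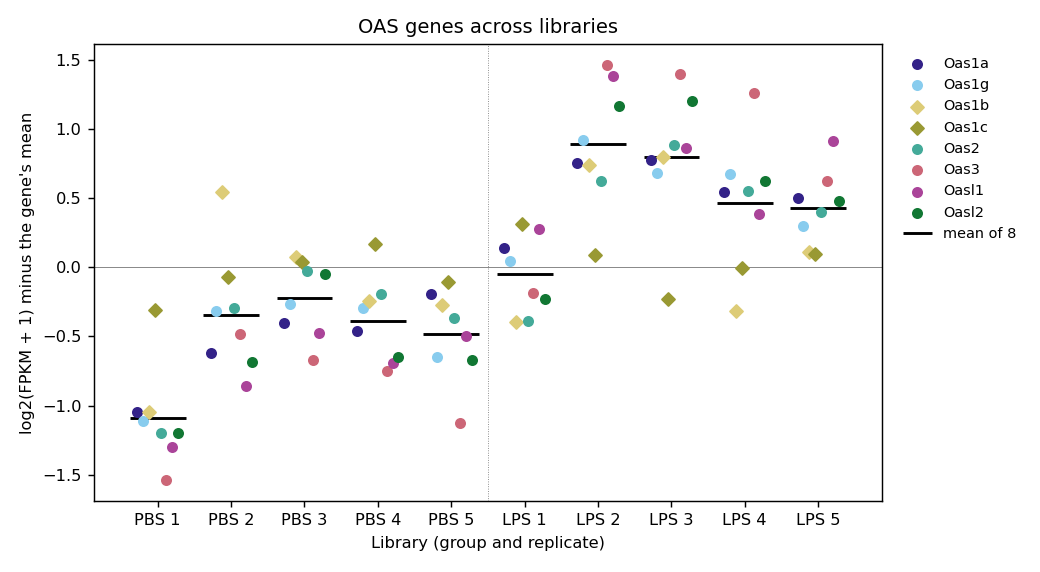
log2(FPKM + 1) of each OAS gene minus its own mean over the 10 libraries, by library, with the mean of the 8 genes as a black bar in each library. PBS replicate 1 is lowest (mean -1.09), LPS replicates 2 and 3 are highest (0.89 and 0.80). Diamonds mark Oas1b and Oas1c.

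The order of levels within the family was kept only in part, and Oas3 moved up beside Oas1g and Oas1b. By their means, Oas2 was above Oasl1 and Oas1b above Oas1g in PBS glands, and both orders were turned in LPS glands. FPKM is per length, so levels can be set side by side, but those of Oas1a and Oas1g, and their ranks, carry the uncertain split of their shared reads. In PBS glands Oasl2 (16.6), Oas1a (15.3) and Oas2 (15.1 FPKM) were highest and did not differ beyond their spread. Oas2 exceeded Oasl1 (9.49) in 5 of 5 libraries, Oasl1 exceeded Oas1b (7.44) in 4 of 5, and Oas1b exceeded Oas1g (4.44) in 5 of 5. Oas3 and Oas1c were lowest, at 1.95 and 1.89 FPKM, and did not differ beyond their spread. In LPS glands Oasl2 (43.5), Oas1a (33.5), Oasl1 (29.9) and Oas2 (27.7 FPKM) were highest, each above the next in 3 or 4 of 5 libraries. Oas1g, Oas3 and Oas1b followed at 10.3, 10.02 and 9.94 FPKM and did not differ beyond their spread, and Oas1c, at 2.11 FPKM, was below Oas1b in all 5. As a percent of the summed FPKM of the 8 genes, Oas3 was at 2.64 ± 0.74% in PBS and 5.78 ± 1.54% in LPS glands and Oasl1 at 13.3 ± 1.44% and 18.1 ± 3.37%. The percent of Oas1b was 10.1 ± 3.32% and 5.83 ± 1.16%, and that of Oas2 was 20.7 ± 1.53% and 16.6 ± 2.0%.

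Other genes of the adenylate pathway, Abce1, Pde12 and Akap7, were not called. Abce1, which recycles ribosomes and is also a regulator of this pathway, was at 36.9 ± 1.06 and 35.7 ± 2.89 FPKM (limma adjusted p = 0.834). Pde12 and Akap7, phosphodiesterases that can degrade the chains, were at 2.10 ± 0.47 and 2.30 ± 0.41 FPKM and at 2.55 ± 0.48 and 2.14 ± 0.43 FPKM (limma adjusted p = 0.810 and 0.555).

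Of 12 genes of other nucleic acid sensors and their adaptors, 11 were tested, 1 rose and 0 fell, against 2.63% and 0.605% of all tested genes, with a median log2 change of 0.47. edgeR called 2 of them higher (2.67% of all tested genes). The authors' deposited table lists 4 of the 12, all as higher, against 608 higher of all 35275 genes. Dhx58, the helicase LGP2 that tunes RNA sensing, rose from 8.26 ± 2.44 to 18.0 ± 5.64 FPKM (2.18-fold, log2 change 1.02 ± 0.24, limma adjusted p = 0.0421). This call was lost without any of PBS replicates 1, 4 and 5 or LPS replicates 2 to 5 (limma adjusted p of 0.0721 to 0.117), with no filter, with milk protein rescaling and without either set of libraries named above. Not called by limma, Zbp1 was at 16.3 ± 4.19 and 30.6 ± 10.8 FPKM (adjusted p = 0.0790 by limma, 0.0408 by edgeR and 0.00258 by DESeq2). Eif2ak2, the kinase PKR that double-stranded RNA also switches on, was at 21.9 ± 7.05 and 36.5 ± 8.41 FPKM (adjusted p = 0.0897 by limma, 0.0823 by edgeR and 0.0185 by DESeq2). Ifih1, nearest to the limma threshold, was at 19.2 ± 4.94 and 30.1 ± 4.58 FPKM (adjusted p = 0.0571 by limma, 0.0838 by edgeR and 0.0238 by DESeq2). Zbp1, Eif2ak2 and Ifih1 were named after their values were seen.

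Transcripts of the interferons themselves were near the limit of detection. Of 9 interferon genes listed, Ifna1, Ifna2, Ifna4, Ifnl2 and Ifnl3 had 0 reads in all 10 libraries, and Ifnb1 had 1 read, in an LPS gland. For a library taken alone, a count of 0 allows up to 3 reads, and 0 in all 10 libraries allows fewer per library. Ifne and Ifnk, the listed interferons of highest mean FPKM, had 17 and 11 reads over the PBS and 22 and 15 over the LPS libraries. Ifng had 8 reads over the PBS and 25 over the LPS libraries, 24 of them in a single library. A difference between groups was not detectable at this depth for these genes, and glands were sampled at a single time. Of 17 genes of interferon receptors and signalling, 3 rose and 0 fell, against 2.63% and 0.605% of all tested genes (median log2 change 0.29). edgeR called 2 higher (2.67% of all tested genes). The authors' deposited table lists 4 as higher (Irf1, Irf7, Socs1 and Usp18), against 608 higher of all 35275 genes, and does not list Ifngr1. Usp18, which ends signalling at the type I interferon receptor, rose from 17.5 ± 3.64 to 44.3 ± 12.7 FPKM (2.53-fold, log2 change 1.27 ± 0.19, limma adjusted p = 0.00506), a call lost without the B cell-rich libraries (log2 change 1.305, limma adjusted p = 0.0631). Irf7, the factor that amplifies interferon transcription, rose from 60.3 ± 12.2 to 126.0 ± 33.8 FPKM (log2 change 1.03 ± 0.20, limma adjusted p = 0.0181), a call lost without LPS replicate 2, with no filter and without either set of libraries named above. Ifngr1, a chain of the interferon gamma receptor, had a log2 change of 0.43 ± 0.10 (limma adjusted p = 0.0308) that was not called by edgeR (0.138) or DESeq2 (0.0755), with no filter, with median-of-ratios, quantile or milk protein rescaling, without either set of libraries named above, or without any of PBS replicates 1 to 5 or LPS replicates 3 to 5. Stat2 and Irf9, which carry the type I signal to the ISRE, were not called: Stat2 was at 28.5 ± 8.05 and 40.3 ± 12.3 FPKM and Irf9 at 23.5 ± 3.87 and 26.5 ± 0.99 FPKM (limma adjusted p = 0.340 and 0.454, genes named after their values were seen).

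**Figure D5:**
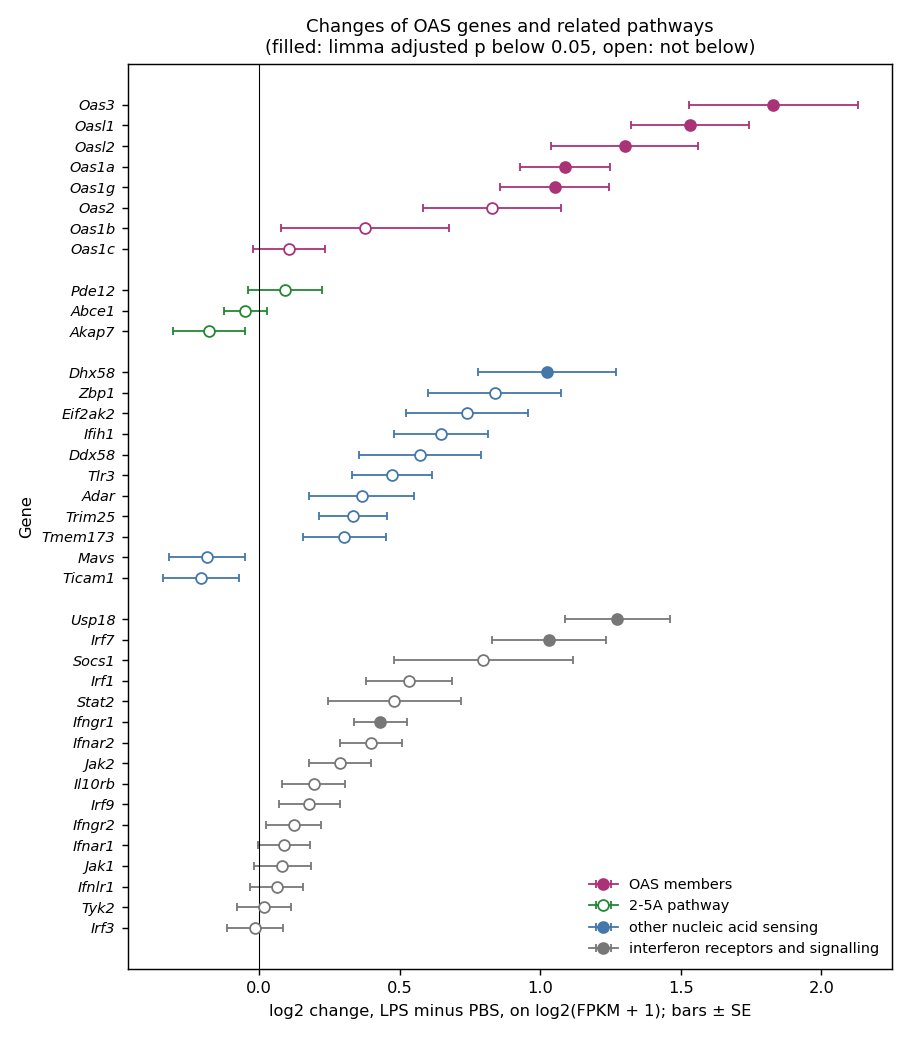
log2 change, LPS minus PBS, on log2(FPKM + 1), with SE bars, for tested genes of 4 lists. Filled points have a limma adjusted p below 0.05: 5 OAS genes, Dhx58, Usp18, Irf7 and Ifngr1, while Abce1, Pde12 and Akap7 lie between -0.18 and 0.09.

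Genes outside the family with the most similar pattern were sought among 6872 tested genes of mean FPKM of at least 5, by the mean absolute difference per library from the pattern of the 8 members. Ifi44, an interferon-induced protein gene, lay nearest (0.09 on the log2 scale), at 19.998 ± 4.10 and 40.5 ± 9.21 FPKM in PBS and LPS glands. Then came Irf7 (0.10), the ubiquitin ligase gene Herc6 (0.11), the ADP-ribosyltransferase gene Parp12 and the TLR signalling inhibitor Trafd1 (both 0.12), the helicase gene Ddx60 (0.12), the tetherin gene Bst2 (0.13) and Dhx58 (0.13). The median of the 6872 genes was 0.50. The groups of Ifi44, Irf7 and Bst2 did not overlap, as for 3.53% of all tested genes with LPS higher, and those of the other 5 did. The members' pattern includes the change between groups, so a rise in these 8 genes follows from how they were chosen. Bst2 is also on the list of plasmacytoid dendritic cell markers, cells that make interferon; it was at 218.3 ± 49.9 and 423.9 ± 96.1 FPKM, while Siglech, which defines these cells, was at 1.32 ± 1.66 and 0.199 ± 0.168 FPKM in PBS and LPS glands, overlapped between groups and did not pass the filter.

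Markers of other cells of the gland were measured in the same way. Of 8 tested monocyte and macrophage markers limma called 0, where 2.63% of all tested genes rose and 0.605% fell, so that a count of 0 is near the background; Csf1r, named after its values were seen, was lower by DESeq2 (adjusted p = 0.0351). The 10 genes of that list summed to 47.8 to 134.9 FPKM in PBS and 37.3 to 86.5 FPKM in LPS glands. No B or T cell marker passed the filter. Summed levels of the T cell list were 0.698 to 37.5 and 0.443 to 9.47 FPKM, and those of the natural killer cell list 4.498 to 8.87 and 4.23 to 16.8 FPKM, in PBS and LPS glands. In these lists no marker was at 0 in all libraries. Within LPS glands the neutrophil markers did not share 1 order: the summed list, of which S100a8 and S100a9 made up most (means of 7386 and 3866 FPKM), was highest in LPS replicate 1, the lowest library in 7 OAS members, and Csf3r and Cxcr2 were highest in LPS replicates 2 and 5.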

How the data were processed

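RNA of 5 LPS and 5 PBS glands was analysed from deposited tables. The submitters' processing notes name the build mm10, the aligner STAR 2.5, the counter HTSeq 0.6.1 and DESeq2 with the version 2; settings are not given in the sources used here. The authors deposited FPKM for all 35275 genes. For 908 listed genes the authors' table adds read counts, normalized counts (a signal of counts over size factors), log2 fold changes, p-values and adjusted p-values. The counts, FPKM and lengths gave each library's depth, and whole reads, within 0.002 reads, were then recovered for 23059 of 23059 genes above 0; they equalled the deposited counts for 908 of 908 listed genes.

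Genes of at least 1 FPKM in at least 5 libraries (11414) were tested with limma 3.58.1 in R 4.3.3 on log2(FPKM + 1), with group as the only term and an intensity trend. A fold change on this scale understates the change of low genes. edgeR 4.0.16 (quasi-likelihood) and DESeq2 1.42.0 were run on recovered reads as alternatives, and these 3 gene-wise tests were tested on simulated data. Symbols came from a table of Ensembl identifiers and names (34490 matched), coordinates from GENCODE M21 (GRCm38, which is mm10). Whether strand was kept and how reads of several matches were counted is not given in the sources used here.

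Named genes were the members, the other Oas1 copies, the adenylate pathway genes, up to 4 called genes per list (otherwise the 2 of highest mean FPKM), and the 8 genes nearest in pattern; exceptions are marked, and some results are not reported here. The members and lists were chosen with earlier results of these data known. Intervals and limits cover counting error only, since PCR copies cannot be told apart. Same-numbered libraries were checked for pairing by the correlation of their deviations from the group means.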

Additional observations from a re-analysis of the deposited data

Results flagged for a closer look

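Irf7 was at 39.4 FPKM in PBS replicate 1, far below the other PBS libraries (63.3 to 71.3 FPKM): the gap to the nearest was 0.751 of the range of the group, above the Dixon limit of 0.71 for 5 samples. Of 44 groups examined, over the tested genes picked by the naming rule, 1 was flagged, and chance flags about 1 in 20. The same library was the lowest PBS library in all 8 OAS members.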

How the results depend on the processing

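The number of OAS members called higher (5) was 4 to 6 when 1 library was left out, 3 with no filter (Oas1g and Oasl2 lost), 0 without PBS replicates 2 and 4 and LPS replicate 3, and 1 without LPS replicates 2 and 5. Over all genes, 300 rises and 69 falls became 117 to 422 and 27 to 89 when 1 library was left out. They became 101 and 25 with no filter, 534 and 122 with library weights, 546 and 299 with DESeq2, 26 and 6 without the B cell-rich libraries, and 36 and 5 without LPS replicates 2 and 5. FPKM rescaled outside milk proteins gave 128 and 348 and moved the median log2 change of all genes from 0.05 to -0.13; the 5 OAS calls held. Quantile normalization gave 233 rises and 145 falls, median-of-ratios scaling 265 and 99, and edgeR 305 and 132. Reads were few for the silent copies, which could not be tested. Pairs of members that differ in response (14) numbered 5 to 14 when 1 library was left out and 0 without either set of libraries. The cause of these shifts was not tested, except that fewer libraries leave fewer splits.

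Replicate numbers do not pair the libraries by the labels. Same-numbered libraries had correlations of 0.482, 0.362, 0.099, 0.103 and 0.494, all positive. Differently numbered libraries had correlations of -0.362 to 0.421, mostly negative, and not every library was nearest to its own number. Whether the numbers mark animals cannot be told from these values. With the replicate block, 962 genes rose and 267 fell, and 6 OAS members were called; Oas2 had an adjusted limma p of 0.000427. For pairs of members the replicate block allows 32 sign patterns, whose smallest p is 0.0625, so 0 pairs could pass in this exact test.

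Of 501 values of 21 named genes under alternatives, 406 kept direction and call, 89 lost the call, 4 gained it and 2 turned sign, both with FPKM rescaled outside milk proteins: Oas1c (-0.0349) and Pde12 (-0.0498). Oas1b, Oas1c, Oas2, Abce1, Pde12 and Akap7 were not called in the main test and could not lose a call. All losses thus fell on the called genes. They ranged from 1 of 24 alternatives (Oasl1 and Usp18) to 13 of 24 (Herc6) and 16 of 24 (Ifngr1). Oasl2 lost its call in 6 of 24.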
